A study of Ovis aries with 16 samples.

Results

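A set of 10 genes of blood vessels and of vascular endothelial growth factor (VEGF) signalling were followed across fat of adult ewes: VEGFA, KDR, FLT1, ENG, TEK, TIE1, PECAM1, CDH5, VWF and RGS5. They were taken by symbol, with earlier results of these data known, and all 10 were present among the 28524 genes of the count table. The growth factor VEGFA, both of its receptors KDR and FLT1, and ENG, a co-receptor for BMP9 and BMP10, were higher in visceral than in subcutaneous fat. This was so in ewes exposed to bisphenol A (BPA) before birth and in control ewes. In BPA ewes none of these differences passed the test on every omission of a single library, nor did that of ENG in control ewes. Every visceral library was also deeper than every subcutaneous one. The receptor genes were about 2-fold higher, while PECAM1, a general marker of endothelium, was at nearly the same level in both depots. Other endothelial genes varied. CDH5 and VWF had higher estimates in visceral fat without passing the test. Their log2 fold changes were 0.41 and 0.44 in BPA ewes and 0.55 and 0.39 in control ewes. The median of 26 further endothelial identity genes was 0.28 in BPA ewes and 0.04 in control ewes. None of the 10 genes passed the test for an effect of BPA in either depot, and VEGFA had the smallest p-value of the 10 in each depot, with estimates above control in both.

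Endothelial cells line blood vessels, and fat is rich in capillaries that bring fatty acids to adipocytes and carry them away. VEGF-A, released by adipocytes and other cells, binds the receptor tyrosine kinases VEGFR2 (encoded by KDR) and VEGFR1 (encoded by FLT1) on endothelial cells; VEGFR2 carries most of the growth signal, and VEGFR1 also acts as a decoy that holds VEGF-A back. A second receptor system, Tie2 and Tie1, answers to angiopoietins and steadies mature vessels, and pericytes wrap the capillaries from outside.

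The series compared RNA sequencing of 2 fat depots from female sheep whose mothers had been given BPA or its vehicle, corn oil. There were 4 groups of 4 libraries: visceral fat of BPA ewes (title numbers 910, 918, 977 and 984), visceral fat of control ewes (902, 908, 924 and 928), subcutaneous fat of BPA ewes (918, 922, 941 and 977) and subcutaneous fat of control ewes (902, 924, 928 and 931). Daily injections under the mothers' skin, of BPA at 0.5 mg/kg/day in corn oil or of corn oil alone, began on day 30 and ended on day 90 of pregnancy, whose term is about 147 days. All daughters were kept on a maintenance diet, and fat was taken at about 21 months of age in the follicular phase, after the cycle had been synchronised with prostaglandin. Visceral fat was mesenteric fat around the rumen, and subcutaneous fat was sternal. The daughters themselves received no BPA after birth as far as the labels say, and 5 numbers occur in both depots. The labels name no litter, so how many mothers stand behind each group is unknown.

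The 16 libraries held between 3.05 M and 14.31 M counts (M, mega). Every visceral library (6.77 M to 14.31 M) was deeper than every subcutaneous one (3.05 M to 6.22 M), so depth and depot run together in these data. The lowest count of any of the 10 genes in any library was 115, for TIE1 in subcutaneous fat of a BPA ewe. All 10 genes passed the filter on low counts in every comparison. Adipocyte markers were abundant in every library, with a summed level of 10989 to 28943 CPM (counts-per-million) over 10 genes. Endothelial identity genes were likewise present throughout, at 2416 to 3467 CPM over 29 genes. In bulk tissue, fewer cells of a type and less RNA per cell cannot be told apart.

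Levels between genes were compared per length, as CPM divided by the deposited gene length in kilobases (RPKM). In visceral fat of BPA ewes VWF averaged 143 ± 14.4 RPKM (SD, n = 4), followed by VEGFA at 128 ± 56.1, PECAM1 at 108 ± 16.8, ENG at 87.3 ± 29.1 and KDR at 70.4 ± 15.7. FLT1 stood at 23.5 ± 8.00 and TIE1 at 11.5 ± 2.44 RPKM, and of the neighbours in this order FLT1 and TIE1 were the one pair whose libraries did not overlap. In visceral fat of control ewes the order was VWF at 166 ± 14.4 RPKM, PECAM1 at 126 ± 15.5, ENG, VEGFA, KDR and RGS5 between 74.8 and 88.5, CDH5 at 47.6 ± 3.83, TEK and FLT1 at 30.2 and 27.3, and TIE1 at 10.7 ± 2.42. The steps above and below PECAM1, the step between RGS5 and CDH5, that between CDH5 and TEK, and that above TIE1 were without overlap, and the other neighbours overlapped.

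In subcutaneous fat PECAM1 and VWF led together, at 118 ± 12.2 and 105 ± 22.6 RPKM in BPA ewes and at 123 ± 26.6 and 127 ± 32.8 RPKM in control ewes. VEGFA came next in BPA ewes, at 49.2 ± 3.50 RPKM, and was 6th of the 10 in control ewes, at 30.9 ± 12.9 RPKM. KDR was at 36.8 ± 10.1 RPKM in BPA ewes and 37.0 ± 5.02 RPKM in control ewes, and FLT1 at 11.1 ± 3.70 RPKM in BPA ewes and 12.7 ± 2.92 RPKM in control ewes. Below the leading pair, 1 step in each group was without overlap besides the one beneath the pair itself, that between TEK and FLT1.

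**Figure D1:**
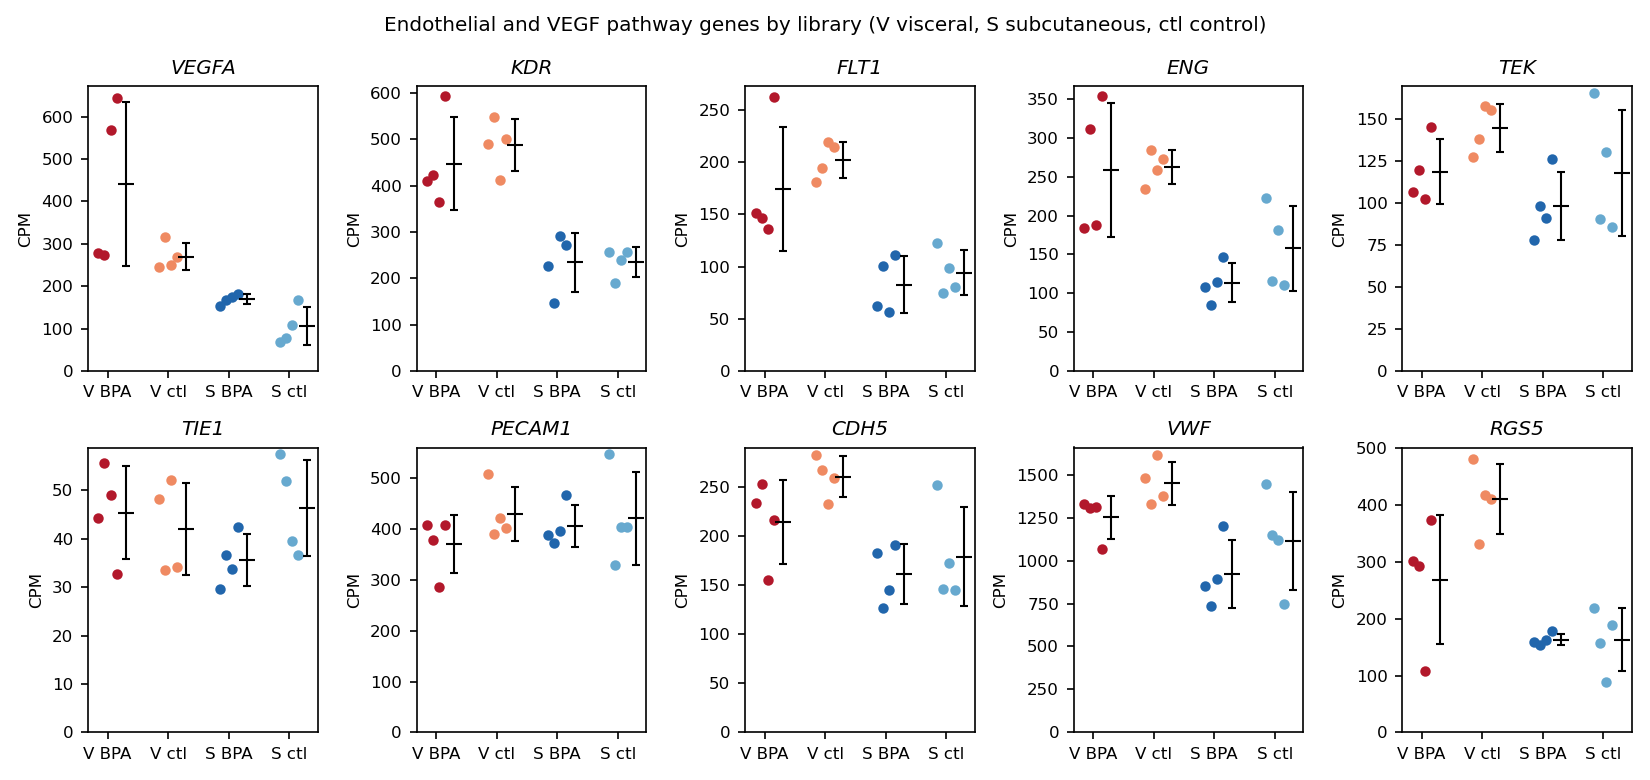
Counts-per-million (CPM, linear axis from 0) of the 10 genes in each library, by depot (V visceral, S subcutaneous) and treatment (BPA, ctl control); points are libraries, and the bar with whiskers gives mean ± SD, n = 4. KDR, FLT1 and VEGFA lie higher in both visceral groups than in both subcutaneous groups, whereas the PECAM1 groups lie at the same height.

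The first comparison asks how the vessel genes differ between depots. In BPA ewes 4 of the 10 genes were called higher in visceral fat (VEGFA, ENG, FLT1 and KDR) and none lower, against 5.13% of the 13782 genes tested that were called higher and 3.94% called lower. In control ewes 5 were called higher (KDR, FLT1, RGS5, VEGFA and ENG) and none lower, against 7.17% and 6.16% of 14456. The 10 genes were chosen with earlier results of these data known, so these counts beside all genes are a description only. A gene was called at an adjusted p under 0.05 in edgeR's quasi-likelihood test with Benjamini-Hochberg adjustment over all genes tested. The median log2 fold change of the 10 genes was 0.58 in BPA ewes and 0.64 in control ewes, and that of all genes tested was 0.02 and -0.01. The called genes were also those whose libraries did not overlap between depots, which held for 9.58% of all genes as higher in BPA ewes and for 10.2% in control ewes. The BPA and control comparisons share no library, and within a treatment some title numbers occur in both depots.

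VEGFA encodes the main angiogenic ligand. Its level was 278, 274, 568 and 644 CPM in visceral fat of BPA ewes and 154, 167, 174 and 182 CPM in their subcutaneous fat. In control ewes it was 244, 317, 251 and 268 CPM in visceral fat, against 69.3, 78.7, 109 and 167 CPM in subcutaneous fat. In both treatments every visceral library lay above every subcutaneous one. The visceral values in BPA ewes fell into a low pair, 910 and 918, and a high pair, 977 and 984. The log2 fold change of visceral over subcutaneous was 1.38 ± 0.28 (SE) in BPA ewes (edgeR adjusted p = 0.0170) and 1.36 ± 0.25 in control ewes (edgeR adjusted p = 0.00691), about 2.6-fold in each. In BPA ewes the edgeR adjusted p was 0.0580 without subcutaneous library 922 and 0.0502 without subcutaneous library 941.

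KDR encodes the main signalling receptor. It had 410, 423, 366 and 593 CPM in visceral fat of BPA ewes and 227, 146, 292 and 271 CPM in their subcutaneous fat. Among control ewes the gene had 491, 548, 412 and 502 CPM in visceral fat and 256, 189, 239 and 257 CPM in subcutaneous fat. Again no visceral library fell among the subcutaneous ones, and the lowest visceral value, 366 CPM in library 977, stood above the highest subcutaneous value, 292 CPM. The log2 fold change was 0.93 ± 0.24 in BPA ewes (edgeR adjusted p = 0.0357) and 1.06 ± 0.15 in control ewes (edgeR adjusted p = 0.00173).

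FLT1 encodes the receptor that also serves as a decoy. It had 151, 147, 137 and 263 CPM in visceral fat of BPA ewes, against 62.3, 101, 56.1 and 111 CPM in their subcutaneous fat. Control ewes had 181, 195, 219 and 214 CPM in visceral fat, against 123, 74.7, 98.6 and 80.5 CPM in subcutaneous fat. Visceral library 984 of a BPA ewe stood well above the other 3 of its group. The log2 fold change was 1.08 ± 0.28 in BPA ewes (edgeR adjusted p = 0.0374) and 1.11 ± 0.16 in control ewes (edgeR adjusted p = 0.00220), so both receptor genes differed between depots by nearly the same factor. In control ewes the calls of KDR, FLT1, VEGFA and RGS5 held when any 1 library was left out. In BPA ewes that of KDR was lost on leaving out any of 910, 918 and 984 in visceral fat or 918, 922, 941 and 977 in subcutaneous fat, with edgeR adjusted p between 0.0547 and 0.0853, and that of FLT1 on leaving out the same libraries other than subcutaneous 977, with edgeR adjusted p between 0.0546 and 0.0984.

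ENG encodes endoglin, a co-receptor for BMP9 and BMP10 on endothelium. It had 184, 311, 188 and 354 CPM in visceral fat of BPA ewes and 108, 85.0, 114 and 147 CPM in their subcutaneous fat. In control ewes it had 234, 285, 259 and 272 CPM in visceral fat and 223, 116, 182 and 110 CPM in subcutaneous fat. The visceral libraries were higher without overlap in both treatments, although subcutaneous control 902 came within reach of visceral control 902. The log2 fold change was 1.19 ± 0.25 in BPA ewes (edgeR adjusted p = 0.0190) and 0.74 ± 0.21 in control ewes (edgeR adjusted p = 0.0436). The call in control ewes was lost on leaving out any 1 library other than subcutaneous control 902, namely visceral 902, 908, 924 or 928 or subcutaneous 924, 928 or 931, with edgeR adjusted p between 0.0567 and 0.103, and in a single fit of all 16 libraries (0.73, edgeR adjusted p = 0.0698). In BPA ewes it was lost without subcutaneous library 918, 922 or 941, with edgeR adjusted p of 0.0506, 0.0658 and 0.0564.

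RGS5 encodes a regulator of G protein signalling that marks pericytes. It had 301, 292, 108 and 373 CPM in visceral fat of BPA ewes and 160, 154, 162 and 178 CPM in their subcutaneous fat. Among control ewes the gene had 481, 331, 417 and 411 CPM in visceral fat and 219, 157, 88.2 and 189 CPM in subcutaneous fat. The control groups were well apart, while visceral library 977 of a BPA ewe, at 108 CPM, lay below all 4 subcutaneous BPA libraries. The log2 fold change was 0.72 ± 0.30 in BPA ewes (edgeR adjusted p = 0.153) and 1.34 ± 0.24 in control ewes (edgeR adjusted p = 0.00652). Without visceral library 977 the BPA estimate was 0.98, with edgeR adjusted p = 0.00513. That library also had the highest summed level of mesothelial markers, 283 CPM over 8 genes, against 29.9 to 66.97 CPM in the other 3 of its group. Its fibroblast markers summed to 7736 CPM over 10 genes, against 1653 to 3873 CPM in those 3, and its adipocyte markers to 14717 CPM, against 22617 to 25452 CPM. The part of these cell types in the RGS5 value was not tested.

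Both Tie receptors stayed below the threshold in both treatments. TEK, which encodes the angiopoietin receptor Tie2, had 107, 120, 102 and 146 CPM in visceral fat of BPA ewes and 77.8, 98.1, 91.3 and 126 CPM in their subcutaneous fat. Control ewes had 128, 138, 158 and 156 CPM in visceral fat and 165, 90.4, 130 and 85.9 CPM in subcutaneous fat. The depots overlapped in both treatments, and the log2 fold changes were 0.27 ± 0.18 (edgeR adjusted p = 0.377) in BPA ewes and 0.30 ± 0.20 (edgeR adjusted p = 0.334) in control ewes. TIE1, which encodes the partner receptor Tie1, had 44.3, 55.6, 48.9 and 32.7 CPM in visceral fat of BPA ewes and 29.5, 36.6, 33.8 and 42.5 CPM in their subcutaneous fat. In control ewes it had 48.2, 33.5, 52.0 and 34.2 CPM in visceral fat and 57.4, 51.9, 39.4 and 36.7 CPM in subcutaneous fat. Its depots overlapped too, and its estimates were 0.35 ± 0.20 (edgeR adjusted p = 0.289) in BPA ewes and -0.14 ± 0.20 (edgeR adjusted p = 0.674) in control ewes.

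PECAM1, CDH5 and VWF, genes of the endothelial surface and its stores, were not called in either treatment. PECAM1, which encodes the adhesion molecule CD31, had 407, 379, 286 and 409 CPM in visceral fat of BPA ewes and 388, 372, 397 and 467 CPM in their subcutaneous fat. Among control ewes the gene had 508, 391, 421 and 401 CPM in visceral fat and 547, 329, 405 and 404 CPM in subcutaneous fat. The depots overlapped almost fully, with log2 fold changes of -0.14 ± 0.17 (edgeR adjusted p = 0.640) in BPA ewes and 0.04 ± 0.17 (edgeR adjusted p = 0.903) in control ewes. CDH5, which encodes the junction protein VE-cadherin, had 233, 253, 155 and 216 CPM in visceral fat of BPA ewes and 182, 126, 145 and 190 CPM in their subcutaneous fat. Control ewes had 282, 267, 232 and 259 CPM in visceral fat and 251, 146, 173 and 144 CPM in subcutaneous fat.

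The log2 fold changes of CDH5 were 0.41 ± 0.20 (edgeR adjusted p = 0.203) in BPA ewes and 0.55 ± 0.18 (edgeR adjusted p = 0.0665) in control ewes. With the title number as a replicate block, which pairs 3 of the control ewes, the control estimate was 0.48 ± 0.14 with edgeR adjusted p = 0.0448; without subcutaneous control 902 it was 0.75 with edgeR adjusted p = 0.0115. VWF, which encodes von Willebrand factor, the clotting protein that endothelium stores, had 1328, 1306, 1313 and 1065 CPM in visceral fat of BPA ewes and 855, 738, 890 and 1200 CPM in their subcutaneous fat. In control ewes it had 1482, 1329, 1613 and 1376 CPM in visceral fat and 1446, 1148, 1119 and 747 CPM in subcutaneous fat. Visceral libraries were mostly the higher ones, with some overlap, and the estimates were 0.44 ± 0.19 (edgeR adjusted p = 0.163) in BPA ewes and 0.39 ± 0.19 (edgeR adjusted p = 0.197) in control ewes.

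**Figure D2:**
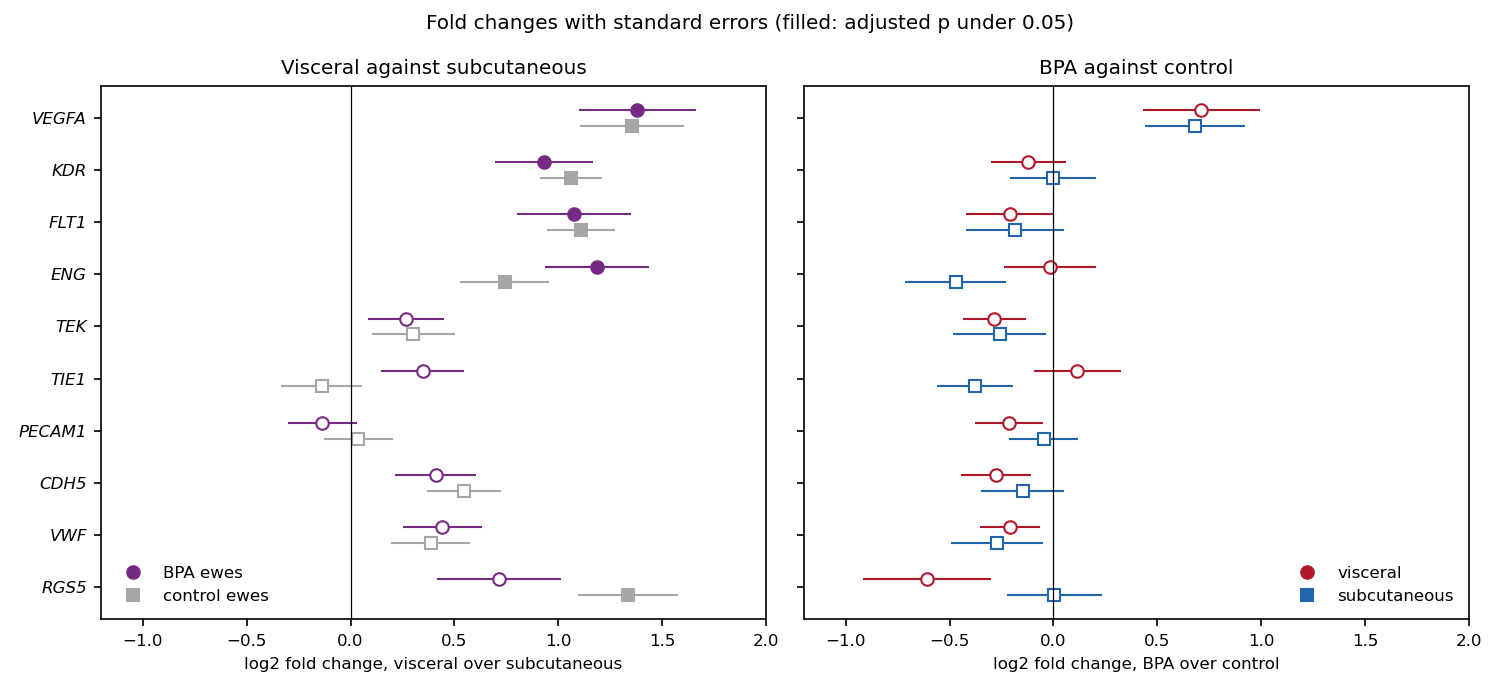
Log2 fold changes with standard errors (edgeR) of the 10 genes, for visceral over subcutaneous fat in BPA and control ewes (left) and for BPA over control ewes in visceral and subcutaneous fat (right); filled symbols passed an adjusted p of 0.05. VEGFA, KDR, FLT1 and ENG are filled in both treatments on the left and RGS5 in control ewes, and no symbol is filled on the right.

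Depth bears on these depot results directly. When every library was thinned at random to the lowest total, an alternative chosen after seeing the data, 4 of the 10 genes were again called in BPA ewes and 5 in control ewes, with log2 fold changes in BPA and control ewes of 0.95 and 1.01 for KDR, 1.04 and 1.06 for FLT1 and 1.35 and 1.31 for VEGFA. With the library total as a covariate, which is nearly the same variable as the depot here, 0 were called in either treatment, and the standard error of KDR in control ewes grew to 0.63. Under that setting the log2 fold changes of FLT1 and ENG in control ewes were -0.21 and -1.21, and that of FLT1 in BPA ewes was -0.049. The other genes called in the main test kept estimates above 0. Differences in processing or RNA quality between depots were not tested.

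Of the title numbers, 5 occur in both depots: 918 and 977 among BPA ewes and 902, 924 and 928 among control ewes. Within these numbers VEGFA was higher in visceral fat in 5 of 5, by 1.78-fold to 3.53-fold, and KDR in 5 of 5, by 1.35-fold to 2.18-fold. FLT1 (1.23-fold to 2.93-fold), ENG (1.05-fold to 2.87-fold) and VWF (1.02-fold to 1.53-fold) were also higher in 5 of 5. For VEGFA, KDR, FLT1 and ENG this follows from depots that did not overlap in either treatment, so it is no separate support. How many of all genes reach 5 of 5 was not counted. Only the control numbers were taken as pairs by the check on title numbers given below. RGS5 was higher in 4 of 5 and CDH5 in 4 of 5, the exception being 977 for both. TEK and TIE1 were higher in 3 of 5. PECAM1 was higher in 1 of 5, with ratios between 0.613 and 1.28.

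The second comparison asks whether BPA before birth changed these genes in the adult. None of the 10 was called in subcutaneous fat, where 0.709% of 13535 genes were, and none in visceral fat, where 0% of 14774 genes were. At an unadjusted p under 0.05, VEGFA alone among the 10 passed in each depot, against 1926 of all genes tested in subcutaneous fat (14.2%) and 1103 in visceral fat (7.47%). With DESeq2 464 genes were called in subcutaneous fat and 6 in visceral fat, none of them among the 10. The median log2 fold change of the 10 genes was -0.21 in visceral and -0.17 in subcutaneous fat, where the median over all genes was 0.00 and -0.01, and 8 of the 10 estimates were below 0 in each depot. KDR in subcutaneous fat, counted among those below 0, was at -0.00016. RGS5 in subcutaneous fat, at 0.00, and ENG in visceral fat, at -0.02, changed sign with the scaling or depth setting. Omission of single libraries also changed the sign of KDR, PECAM1, CDH5 and RGS5 in subcutaneous fat and of ENG in visceral fat. With the library total as a covariate FLT1, PECAM1, CDH5 and TEK were also above 0 in subcutaneous fat, and KDR and FLT1 in visceral fat, so the count of 8 does not hold under that setting.

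VEGFA had the largest estimate in each depot. In visceral fat its mean was 441 ± 193 CPM in BPA ewes and 270 ± 32.8 CPM in control ewes (SD, n = 4 each). BPA over control gave a log2 fold change of 0.71 ± 0.28 (edgeR adjusted p = 0.658). The low pair of BPA libraries lay inside the control range and the high pair above it. In subcutaneous fat it was 169 ± 12.0 CPM in BPA ewes and 106 ± 44.3 CPM in control ewes. Its estimate there was 0.68 ± 0.24 (edgeR adjusted p = 0.248). There the BPA libraries were close together, and control 931, at 167 CPM, lay among them while the other 3 controls lay below. Without subcutaneous control 931 the estimate was 0.99 with edgeR adjusted p = 0.0369; with subcutaneous controls 902 and 924 left out together it was 0.30 with edgeR adjusted p = 0.580. The test of the difference between both BPA effects gave 0.03 ± 0.40 for VEGFA (edgeR adjusted p = 0.9999).

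Neither receptor was called. KDR had a log2 fold change of BPA over control of -0.12 ± 0.18 in visceral fat and 0.00 ± 0.21 in subcutaneous fat, and FLT1 one of -0.21 ± 0.21 and -0.19 ± 0.24 (edgeR adjusted p between 0.773 and 0.9998). ENG had -0.02 ± 0.22 in visceral fat and -0.47 ± 0.24 in subcutaneous fat (edgeR adjusted p = 0.417 for the second). TIE1 had 0.12 ± 0.21 and -0.38 ± 0.18 in the same depots. RGS5 averaged 269 ± 113 CPM in visceral fat of BPA ewes and 410 ± 61.5 CPM in visceral fat of control ewes, a log2 fold change of -0.61 ± 0.31 (edgeR adjusted p = 0.658), and without visceral BPA library 977 this was -0.36. VWF in visceral fat was the one gene whose groups did not overlap, at 1065 to 1328 CPM in BPA ewes and 1329 to 1613 CPM in control ewes, with a log2 fold change of -0.21 ± 0.14 (edgeR adjusted p = 0.701); 1.96% of all genes were lower without overlap in that comparison. In the test of the difference between both BPA effects 0 of the 10 were called, as were 0% of 14793 genes; at an unadjusted p under 0.05 there were 0 of the 10 and 917 genes in all (6.2%), and DESeq2 called 11 genes, none of the 10.

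Ratios within a library cancel its depth. The per-length ratio of VEGFA to KDR ran from 1.201 to 2.88 in visceral fat of BPA ewes and from 0.921 to 1.13 in visceral fat of control ewes, so the groups did not overlap, which held for 1.37% of all genes set over KDR in the same direction. In subcutaneous fat it ran from 1.10 to 2.11 in BPA ewes and from 0.501 to 1.21 in control ewes, with overlap. The ratio of VEGFA to FLT1 ran from 3.97 to 8.98 in visceral fat of BPA ewes and from 2.47 to 3.51 in visceral fat of control ewes, again without overlap, as for 1.98% of all genes over FLT1. In subcutaneous fat it ran from 3.54 to 6.67 in BPA ewes and from 1.22 to 4.48 in control ewes. These ratios were picked with the VEGFA values known and are given as a description.

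Set over PECAM1, KDR separated the depots rather than the treatments. The ratio was 0.543 to 0.782 in visceral and 0.212 to 0.397 in subcutaneous fat of BPA ewes, and 0.521 to 0.756 in visceral and 0.252 to 0.342 in subcutaneous fat of control ewes. ENG over PECAM1 was 0.522 to 0.999 in visceral and 0.264 to 0.362 in subcutaneous fat of BPA ewes, and 0.532 to 0.841 against 0.315 to 0.520 in the same depots of control ewes. CDH5 over PECAM1 was also without overlap, at 0.331 to 0.419 against 0.213 to 0.295 in BPA ewes and 0.346 to 0.428 against 0.224 to 0.288 in control ewes. FLT1 and VEGFA over PECAM1 were likewise higher in visceral fat without overlap in both treatments. The others did not separate the depots in both. TEK over PECAM1 overlapped, at 0.187 to 0.255 against 0.143 to 0.193 in BPA ewes and 0.180 to 0.277 against 0.152 to 0.230 in control ewes, and so did TIE1 over PECAM1. RGS5 over PECAM1 overlapped in BPA ewes (0.237 to 0.571 against 0.238 to 0.258) and VWF over PECAM1 in control ewes (1.14 to 1.501 against 0.724 to 1.37). Of all genes, 14.2% were higher without overlap when set over PECAM1 in BPA ewes and 5.78% in control ewes. The ratio of KDR to FLT1 did not separate the depots, at 2.63 to 3.36 against 1.69 to 6.07 in BPA ewes and 2.19 to 3.28 against 2.43 to 3.72 in control ewes.

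**Figure D3:**
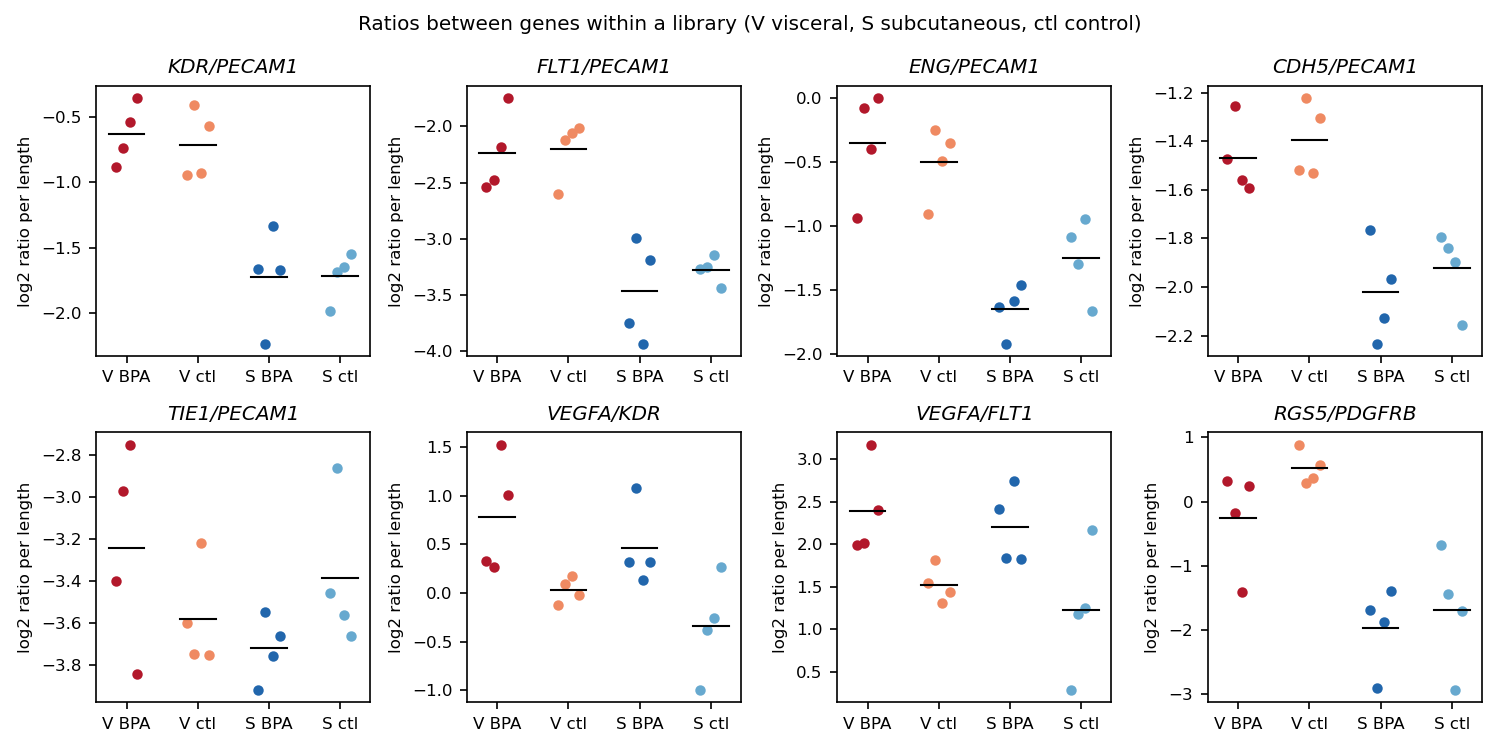
Log2 of per-length ratios between genes within each library (V visceral, S subcutaneous, ctl control); points are libraries and lines are group means, n = 4, and the vertical axes differ between panels. KDR, FLT1, ENG and CDH5 over PECAM1 lie higher in visceral fat in both treatments, and VEGFA over KDR and over FLT1 lies higher in BPA ewes than in control ewes in visceral fat without overlap.

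The members were also compared with each other across libraries, after each gene was centred on its group mean in log2 CPM. Over the 16 libraries, the 28 pairs among the 8 endothelial genes had a median Pearson r of 0.48, from -0.41 for KDR with TIE1 to 0.83 for ENG with TEK. PECAM1 with CDH5 reached 0.81 and FLT1 with TEK 0.82, whereas KDR with FLT1 had 0.15. VEGFA had a median of -0.20 over its 8 pairs and -0.61 with TIE1, and RGS5 had a median of 0.31. The genes outside the set had a median r of 0.03 with the mean of the 8. The genes most like that mean were GJA4, a gap junction gene of arterial endothelium (r = 0.95), THBD, which encodes thrombomodulin (0.92), PODXL (0.87), SLC30A1 (0.86), PTPRB (0.86), ZBTB46 (0.86), EMILIN3 (0.86, at a mean level of 1.18 CPM), ETS2 (0.86), LOC101118128 (0.84) and RDH10 (0.83). All points share library depth and group centring, and the values are a description over 16 libraries.

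Among the other VEGF ligands, VEGFD was higher in visceral fat in BPA ewes, at 19.98 ± 7.30 against 5.21 ± 1.81 CPM (log2 fold change 1.95 ± 0.34, edgeR adjusted p = 0.00958), and in control ewes, at 32.5 ± 5.25 against 12.2 ± 7.55 CPM (1.42 ± 0.37, edgeR adjusted p = 0.0297). VEGFB, a ligand of VEGFR1, was higher in control ewes, at 270 ± 29.0 against 168 ± 20.1 CPM, and was 234 ± 55.2 against 182 ± 60.2 CPM in BPA ewes, where it was not called. VEGFC and PGF were not called in either. Of 3 further receptors, NRP2, a co-receptor, was higher in visceral fat in both treatments, by 1.06 ± 0.15 and 0.95 ± 0.16 on the log2 scale. FLT4, the receptor of lymphatic endothelium, was lower in visceral fat of control ewes, at 8.83 ± 3.07 against 24.6 ± 9.78 CPM, and was 19.4 ± 5.51 against 23.9 ± 7.50 CPM in BPA ewes. NRP1 was not called.

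The counts of called genes that follow stand against 5.13% of all genes called higher and 3.94% called lower in BPA ewes, and 7.17% and 6.16% in control ewes. The lists, like the members, were chosen with earlier results of these data known. Of the signalling genes below the receptors, 24 were tested in BPA ewes and 25 in control ewes. In BPA ewes 5 were higher in visceral fat (SHB, PRKCB, MAP2K1, NOS3 and HSPB1) and 0 lower; in control ewes SHB, NOS3 and HSPB1 were higher and PLCG1 and NFATC1 lower, 3 and 2 of 25, which is near the shares of all genes. NOS3, the endothelial nitric oxide synthase, was at 112 ± 33.6 CPM in visceral and 53.8 ± 17.1 CPM in subcutaneous fat of BPA ewes, and at 113 ± 24.7 and 60.7 ± 22.8 CPM in the same depots of control ewes. Of 10 tested genes of clotting and vessel tone, THBD and NOS3 were higher in visceral fat of BPA ewes. In control ewes NOS3 alone of these was called. In the angiopoietin group PTPRB, the phosphatase that acts on Tie2, was higher in visceral fat in both treatments, by 0.94 ± 0.22 and 0.83 ± 0.22, and ANGPT4 was lower in both, by -1.27 ± 0.25 and -1.69 ± 0.47; SVEP1 was higher in BPA ewes. In the group around endoglin 3 of 10 were higher in BPA ewes: ID3 and ID1, targets of BMP signals, and ACVRL1, the receptor ALK1. In control ewes ID3 was higher and SMAD1 lower. Of 26 other endothelial identity genes CD34 was lower in visceral fat in both treatments, by -0.84 ± 0.19 and -0.83 ± 0.17, and JAM2, ERG and ARHGEF15 were higher in control ewes; the list medians were 0.28 in BPA ewes and 0.04 in control ewes.

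Genes of vessel types were counted in the same way, against 5.13% of all genes called higher and 3.94% called lower in BPA ewes, and 7.17% and 6.16% in control ewes. Of 13 arterial genes 5 were higher in visceral fat of BPA ewes (UNC5B, GJA5, NOTCH4, JAG2 and GJA4) and 4 in control ewes (EFNB2, GJA5, NOTCH4 and UNC5B), with medians of 0.77 and 0.62. GJA5, which encodes a connexin of arteries, was at 45.5 ± 12.5 CPM in visceral and 13.1 ± 7.11 CPM in subcutaneous fat of BPA ewes. Of 8 capillary genes none was called in BPA ewes, with a median of 0.41. In control ewes 4 were higher and AQP1 lower, with a median of 0.80: CD300LG at 212 ± 28.3 against 94.0 ± 7.02 CPM, BTNL9 at 274 ± 16.0 against 138 ± 26.8 CPM, MEOX2 and CA4. Of 7 lymphatic genes none was called in BPA ewes (median -0.08), and PROX1, the master regulator of that lineage, RELN, CCL21 and FLT4 were lower in visceral fat of control ewes (median -1.46), PROX1 at 10.9 ± 4.09 against 31.3 ± 12.5 CPM. Of the venous and activated endothelial genes 5 were tested in BPA ewes, where NR2F2, a regulator of venous identity, was higher at 101 ± 8.38 against 53.7 ± 7.97 CPM (list median 0.06). In control ewes 6 were tested and SELE, the adhesion molecule E-selectin, was lower at 0.0223 ± 0.0446 against 2.54 ± 1.27 CPM (list median -0.90). SELE passed the filter on low counts only through its subcutaneous libraries, so its call is a description only. Whether these lists differ between treatments was tested gene by gene, and 0 of their genes were called in the difference of BPA effects. Of all 14793 genes tested there 0% were called, so this is no result about the lists.

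**Figure D4:**
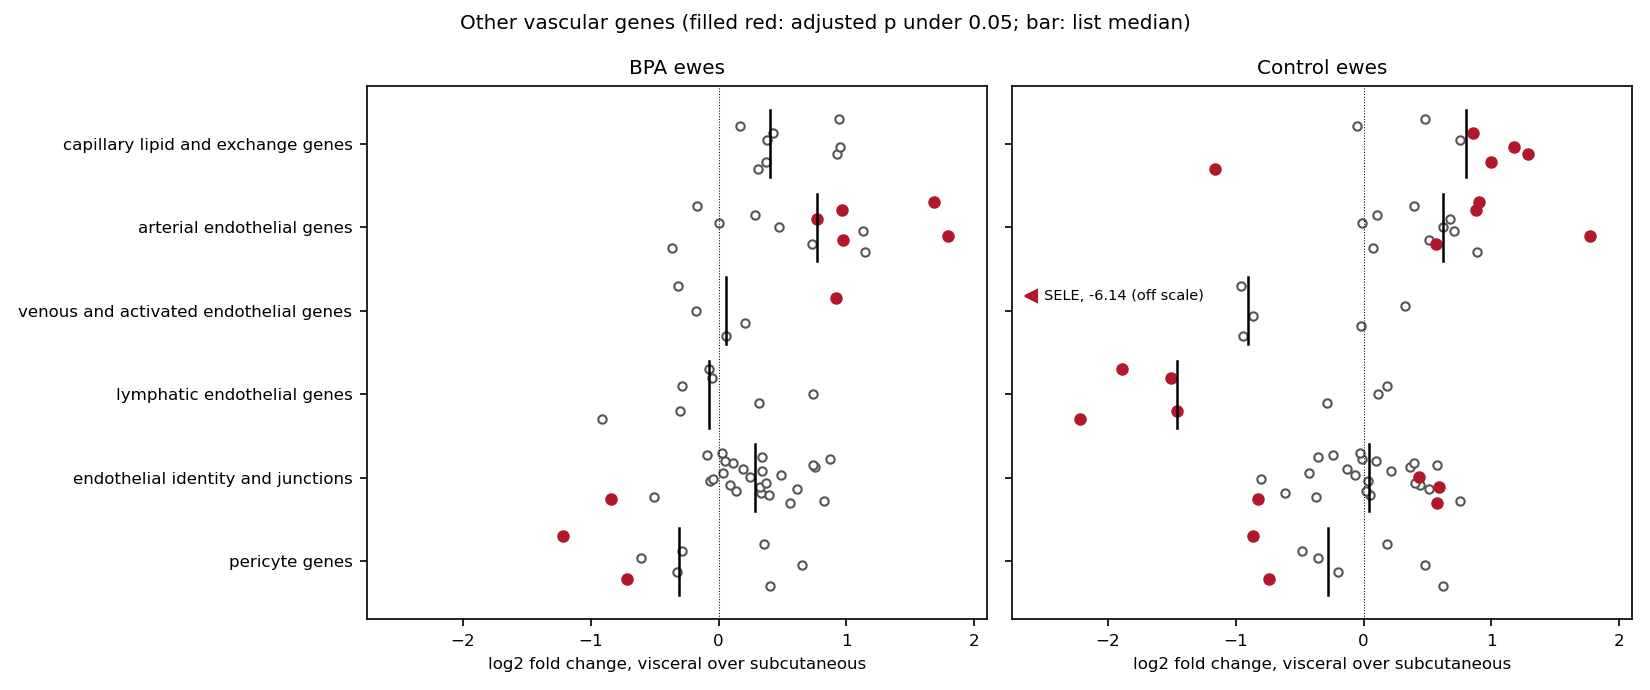
Log2 fold changes of visceral over subcutaneous fat (edgeR) for genes of 6 vascular lists without the 10 genes above, in BPA ewes and in control ewes; each point is a gene, red points passed an adjusted p of 0.05, and bars are list medians. Arterial genes lie mostly above 0 in both panels, with medians of 0.77 and 0.62, and 4 lymphatic genes are red and below 0 in control ewes; SELE, off scale, had nearly no counts in visceral fat.

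Pericyte genes and genes of the oxygen response were read beside RGS5 and VEGFA, against the same shares of all genes (5.13% higher and 3.94% lower in BPA ewes, 7.17% and 6.16% in control ewes). Of 8 other pericyte genes PDGFRB and ANPEP were lower in visceral fat in both treatments and 0 higher: PDGFRB, the receptor that recruits pericytes, was at 279 ± 36.9 CPM in visceral and 648 ± 303 CPM in subcutaneous fat of BPA ewes, and at 269 ± 26.4 and 491 ± 146 CPM in the same depots of control ewes. Both genes are also expressed by fibroblasts, whose 10 markers summed to 1653 to 7736 CPM in visceral and 2598 to 4971 CPM in subcutaneous fat of BPA ewes, with overlap, and to 2436 to 3533 CPM in visceral and 4880 to 8055 CPM in subcutaneous fat of control ewes, without overlap. COL1A1 and COL3A1 among them were called lower in visceral fat of control ewes, and none was called in BPA ewes. The part of fibroblasts in these values was not tested. Of 19 hypoxia genes EPAS1, which encodes HIF-2α, was higher in visceral fat in both treatments, by 0.84 ± 0.23 and 1.13 ± 0.17, and SLC2A1, a glucose transporter, lower in both, by -1.06 ± 0.28 and -1.39 ± 0.23. In control ewes BNIP3 and PFKFB3 were also higher and LDHA lower. Of 11 angiogenesis inhibitors COL18A1 was higher in BPA ewes and SEMA3F and SPRY4 in control ewes; of 15 other growth factors CXCL12 was higher in BPA ewes, and PDGFB was higher and HGF lower in control ewes. The counts among inhibitors and growth factors are 1 or 2 genes a list, and are not read as differing from the shares of all genes.

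For BPA against control, 0 genes of these vascular and pathway lists were called in either depot. Of all genes, 0.709% were called in subcutaneous fat and 0% in visceral fat, so the 0 in visceral fat is no result about the lists. FLT4 in visceral fat was at 19.4 ± 5.51 CPM in BPA ewes and 8.83 ± 3.07 CPM in control ewes (log2 fold change 1.13 ± 0.31, edgeR adjusted p = 0.658). VEGFD was at 19.98 ± 7.30 CPM in BPA ewes and 32.5 ± 5.25 CPM in control ewes in visceral fat, and at 5.21 ± 1.81 and 12.2 ± 7.55 CPM in subcutaneous fat, with edgeR adjusted p of 0.658 and 0.275. THBD in subcutaneous fat was at 27.6 ± 5.15 CPM in BPA ewes and 74.9 ± 48.6 CPM in control ewes (edgeR adjusted p = 0.124).

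Other cell types moved beside these genes. Mesothelial markers summed to 29.9 to 283 CPM in visceral and 1.86 to 5.42 CPM in subcutaneous fat of BPA ewes, and to 51.0 to 105 CPM in visceral and 4.08 to 9.36 CPM in subcutaneous fat of control ewes; LRRN4 was at 0 in every subcutaneous library. In visceral fat 2 of 3 tested mesothelial markers were called higher in BPA ewes (LRRN4 and WT1), against 5.13% of all genes. In control ewes 5 of 6 were (UPK3B, LRRN4, WT1, KRT8 and KRT19), against 7.17%. Within subcutaneous fat only 1 of the 8 markers passed the filter on low counts. Those tested between depots thus entered largely through their visceral libraries, so these counts beside all genes are a description only. The 10 adipocyte markers summed to 14717 to 25452 CPM in visceral and 13997 to 22451 CPM in subcutaneous fat of BPA ewes, and to 20816 to 28943 CPM and 10989 to 21426 CPM in the same depots of control ewes, where ADIPOQ was called higher in visceral fat. The 8 macrophage markers summed to 323 to 520 CPM in subcutaneous fat of BPA ewes and 603 to 833 CPM in subcutaneous fat of control ewes, with 8 of 8 estimates lower and TYROBP called, against 0.709% of all genes called there in either direction. In visceral against subcutaneous fat of BPA ewes CD68, CD14 and TYROBP were called higher, and in control ewes MRC1 was. SYNPO2, a smooth muscle gene, was called higher in visceral fat in both treatments, by 1.68 ± 0.32 in BPA ewes and 1.36 ± 0.22 in control ewes. Of the Schwann cell markers, SOX10 was called higher in visceral fat of BPA ewes and S100B in that of control ewes. ALAS2, a red blood cell marker that did not pass the filter within subcutaneous fat, was called higher in visceral fat in both treatments. TNNT3, a skeletal muscle marker, was called lower in visceral fat of control ewes. Smooth muscle markers summed to 1773 to 5128 CPM in visceral fat of BPA ewes and 1431 to 2289 CPM in visceral fat of control ewes. Among them LMOD1 was called higher in BPA ewes in subcutaneous fat, and of 10 fibroblast markers THY1 and FN1 were called lower there. With subcutaneous controls 902 and 924 left out together no gene at all was called for BPA in subcutaneous fat, so the calls of TYROBP, LMOD1, THY1 and FN1 were lost, and voom with the number as a block called 1 gene. Of 8 platelet markers ITGA2B alone could be tested, and it was not called. The part of these cells in the results above was not tested.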

How the data were processed

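The deposited table holds counts per gene and library that the authors made; its name calls them normalized, but all values are whole and totals differ, so they were treated as raw counts. The tools named in the submitters' processing notes are STAR 2.6.0c, featureCounts (Subread 1.6.1), FastQC 0.11.5 and MultiQC 0.9. For the build, annotation and strand the sources used here give nothing, so no position is printed. By the exon positions deposited with the counts, no exon of the 10 genes overlaps another gene. ENG spans LOC114113875 without exon overlap. The RNA was ribosome-depleted and amplified with a low-input kit, per the labels' protocols.

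Each comparison was fitted on all genes passing filterByExpr (10 counts at the median depth, 15 in total) with edgeR 4.0.16 in R 4.3.3: TMM scaling, quasi-likelihood test, two-sided, Benjamini-Hochberg adjustment, called at 0.05. Comparisons within a depot or treatment used 8 libraries, and the difference of BPA effects all 16. A standard error is the estimate over the root of the F statistic. CPM computed from the deposited counts used 1 TMM scale over 16 libraries, and correlations log2 CPM with a prior count of 2. Title numbers were checked as animals by correlating, across genes, the deviations of both libraries from their group means: 0.287, 0.400 and 0.332 for control numbers 902, 924 and 928, taken as pairs; BPA numbers 918 and 977 gave 0.167 and 0.0313. Libraries with unlike numbers were not correlated, so the check cannot tell whether 918 and 977 are each the same ewe in both depots. Nothing says which libraries are separate animals beyond these numbers. Intervals and p-values measure the spread between libraries only.

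The 10 genes and the 26 lists were chosen with earlier results of these data known. Named from a list were up to 4 genes with the smallest p, for other cell types also the most abundant markers, and for likeness the 10 highest r; where up to 5 genes of a list were called, all were named after their values were seen. The method was tested on simulated counts. Alternatives were DESeq2 1.42.0, its size factors, no filter, 50 counts in 4 libraries, a threshold of 0.10, robust moderation, library total as a covariate, 1 fit of 16 libraries, number as a block (edgeR, or limma 3.58.1 voom), omission of single libraries and of subcutaneous controls 902 and 924 together, RPKM, and, added after seeing the data, thinning.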

Additional observations from a re-analysis of the deposited data

Results flagged for a closer look

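In visceral fat of BPA ewes, library 984 had 263 CPM of FLT1, far above the other 3 libraries of its group (137 to 151 CPM). The same library had 1065 CPM of VWF, far below the other 3 (1306 to 1328 CPM). Of 40 groups of 4 libraries examined for the 10 genes, these 2 stood apart, and chance gives about 1 in 20. Without library 984, FLT1 in visceral over subcutaneous fat of BPA ewes was 0.81 on the log2 scale (edgeR adjusted p = 0.0751) and KDR was 0.77 (edgeR adjusted p = 0.0826).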

How the results depend on the processing

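The number of the 10 genes called in visceral against subcutaneous fat was 5 in control ewes and 4 in BPA ewes. With library total as a covariate it was 0 in both; with the title number as a fixed replicate block it was 2 in BPA ewes (VEGFA and ENG; KDR 0.67 and FLT1 0.77 were not called) and 6 in control ewes, where CDH5 joined. Over the omissions of single libraries it ran from 4 to 6 in control ewes and from 0 to 5 in BPA ewes. It was 0 without subcutaneous BPA library 922 or 941, 1 without 918 and 3 without 977, and in visceral fat 2 without 910, 918 or 984 and 5 without 977. For BPA against control it was 0 to 1 in subcutaneous fat (VEGFA without control 931), 0 in visceral fat and 0 for the difference of BPA effects.

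Sign changes concern estimates that were not called under the setting. RGS5 in subcutaneous fat for BPA was -0.0014 with DESeq2, -0.0013 with its size factors, -0.0047 with no filter, -0.011 with the stricter filter, -0.00061 in the fit of 16 libraries, -0.012 thinned and -0.10 with the covariate. The covariate gave FLT1 0.28, PECAM1 0.070, CDH5 0.19 and TEK 0.069 there, and KDR 0.037, FLT1 0.027, ENG 0.18 and TIE1 -0.085 for BPA in visceral fat, where ENG thinned was 0.0097. Between depots it gave FLT1 -0.21, ENG -1.21, PECAM1 -0.63, CDH5 -0.64, TEK -1.70 and VWF -1.09 in control ewes, and FLT1 -0.049, CDH5 -0.037, TEK -0.15 and RGS5 -0.58 in BPA ewes. With subcutaneous controls 902 and 924 both left out, BPA in subcutaneous fat gave PECAM1 0.014 and CDH5 0.027, the depots of control ewes TIE1 0.13, and the difference of BPA effects VWF -0.19. VEGFA in that difference was -0.36 with the fixed block and -0.20 with voom and the block as a random effect.

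Omissions of single libraries gave these ranges where a sign changed. For BPA in subcutaneous fat they were KDR -0.12 to 0.17, PECAM1 -0.15 to 0.10, CDH5 -0.23 to 0.061 and RGS5 -0.20 to 0.18; for BPA in visceral fat ENG -0.21 to 0.11; between depots of control ewes PECAM1 -0.070 to 0.18. For the difference of BPA effects they were CDH5 -0.34 to 0.00079, FLT1 -0.30 to 0.15, KDR -0.29 to 0.0036, TEK -0.23 to 0.12, VEGFA -0.28 to 0.20 and VWF -0.087 to 0.22.

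Over all genes, BPA calls in subcutaneous fat numbered 96, and 464 with DESeq2, 173 with no filter, 54 with the stricter filter, 46 in the fit of 16 libraries, 13 with the covariate, 1 with voom and 0 without subcutaneous controls 902 and 924. Depot calls numbered 1250 in BPA ewes and 1928 in control ewes. In BPA ewes they were 2197 with DESeq2, 2408 in the fit of 16 libraries, 2300 with voom and 225 with the covariate, and ran from 369 (without subcutaneous 922) and 491 (without 941) to 2206 (without visceral 977) over single omissions, each of which moved them by over 1.5 times. In control ewes they were 0 with the covariate and 1138 without subcutaneous controls 902 and 924, and ran from 1043 (without visceral 928) to 1755 over single omissions, with 1245, 1216 and 1239 without visceral 902, visceral 908 and subcutaneous 924. The shares of all genes called between depots move with these counts. The covariate nearly follows depot, and each single omission leaves fewer libraries. The causes of these changes were not tested.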
